A study of Mus musculus with 15 samples.

Results

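The genes described here are Ryr3 and Itpr1, which encode calcium release channels, Nalcn, which encodes a sodium leak channel, and Grin3a, Gabrb1 and Chrm3, which encode receptors for glutamate, GABA and acetylcholine. Each was chosen because it holds a region in a deposited list of 381 places where the signal of the chromatin protein BAZ1B differed between cocaine and saline. The choice took every region assigned to these genes in the classes gene body or promoter, and gave 6 regions, 1 per gene, all in the gene body class, out of 130 regions in those classes. The cocaine and saline values of these 6 regions are the values that put them on the list, so they are described here and support no claim.

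BAZ1B, also known as WSTF, was precipitated from cross-linked nucleus accumbens and the bound DNA was sequenced (ChIP-seq). All mice were C57BL/6J males, 7 to 8 weeks old, and carried no engineered allele per the labels. One group of 3 libraries came from mice that received cocaine hydrochloride intraperitoneally each day at 20 mg/kg, and the other 3 libraries from mice injected daily with the saline vehicle; the number of injection days is not given in the sources used here. Each library pooled bilateral punches from 5 to 10 mice, so a value is an average over animals and over all cell types of the punch, and spread between single mice is not seen. The series also has 9 samples from normal control, resilient and susceptible mice of a social defeat model, which were not analysed here. In such tissue, less BAZ1B signal per cell and fewer cells with signal cannot be told apart. No input library was analysed here, and a ChIP of 1 factor offers no marker genes by which to check the tissue.

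BAZ1B pairs with ISWI ATPases such as SMARCA5 in complexes that slide nucleosomes, and the nucleus accumbens is a striatal hub on which dopamine, glutamate, GABA and acetylcholine inputs meet. Neurons raise cytosolic calcium from internal stores through ryanodine receptors, which calcium itself opens, and through inositol trisphosphate receptors, which open when Gq-coupled receptors such as the M3 muscarinic receptor activate phospholipase C. NALCN carries a steady inward sodium current that helps to set the resting potential, NMDA receptors admit calcium when glutamate binds, and GABA-A receptors are chloride channels that usually dampen firing.

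RefSeq promoter windows of 300 bp, from 250 bp before to 50 bp after an annotated start, were matched by symbol for 3 of the 6 genes: Nalcn, Gabrb1 and Chrm3. They are printed because only these 3 genes had a window, not to contrast the 2 directions. Nalcn and Gabrb1 were listed as lower in cocaine and Chrm3 as higher, and the listed region of each gene lay far downstream of its start. Capitals mark CpG dinucleotides, and each window is written 5′ to 3′ on the strand of the gene, in build GRCm38.p6.
Nalcn, minus strand, chr14:123627095-123627394: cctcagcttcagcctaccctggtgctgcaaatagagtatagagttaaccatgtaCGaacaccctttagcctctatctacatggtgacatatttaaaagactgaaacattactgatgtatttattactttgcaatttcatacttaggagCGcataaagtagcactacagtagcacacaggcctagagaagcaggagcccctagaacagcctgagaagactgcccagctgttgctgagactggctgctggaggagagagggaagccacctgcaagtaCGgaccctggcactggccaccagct
Gabrb1, plus strand, chr5:71657671-71657970: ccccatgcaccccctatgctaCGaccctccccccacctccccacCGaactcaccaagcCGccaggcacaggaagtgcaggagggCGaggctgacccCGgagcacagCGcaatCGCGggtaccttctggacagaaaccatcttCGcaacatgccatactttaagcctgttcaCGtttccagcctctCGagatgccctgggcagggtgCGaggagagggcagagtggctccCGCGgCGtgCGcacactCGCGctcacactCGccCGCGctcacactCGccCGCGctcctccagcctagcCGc
Gabrb1, plus strand, chr5:71699682-71699981: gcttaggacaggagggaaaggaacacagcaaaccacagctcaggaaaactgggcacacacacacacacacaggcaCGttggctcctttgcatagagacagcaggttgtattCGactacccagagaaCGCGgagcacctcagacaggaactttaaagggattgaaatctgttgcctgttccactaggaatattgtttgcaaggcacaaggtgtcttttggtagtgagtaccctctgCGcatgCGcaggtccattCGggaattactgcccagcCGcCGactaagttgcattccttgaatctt
Chrm3, minus strand, chr13:10360754-10361053: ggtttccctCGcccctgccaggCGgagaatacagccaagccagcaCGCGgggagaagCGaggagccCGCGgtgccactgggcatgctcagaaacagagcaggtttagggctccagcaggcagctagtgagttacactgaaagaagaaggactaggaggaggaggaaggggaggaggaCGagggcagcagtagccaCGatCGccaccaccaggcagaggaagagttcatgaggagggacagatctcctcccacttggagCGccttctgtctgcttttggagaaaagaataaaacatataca
The Nalcn window held 3 CpG dinucleotides, and 31.4% of all 32851 windows of this length held no more than that. The first Gabrb1 window held 25, which 18.4% of windows reached, and the second held 9. The Chrm3 window held 11, against a median of 7 over all windows. On either strand none of these 4 windows contained the AP-1 letters TGANTCA, present in 7.81% of windows, or the palindromic cAMP response letters TGACGTCA, present in 1.79%. The windows give the letters at the starts only. The sequences of the 6 listed regions are not shown; these regions are placed on build mm9, as are all coordinates below.

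BAZ1B signal was higher in cocaine at Ryr3, Grin3a and Chrm3 and lower at Itpr1, Nalcn and Gabrb1. The list as a whole has 58.5% of its regions higher in cocaine, beside 3 of 6 here. At all 6 regions the values of the 2 groups did not overlap, which also held for 91.9% of the list and for 88.5% of its regions in gene bodies or promoter classes. In the authors' deposited table all 6 have an adjusted p under 0.05, as have 95.5% of the listed regions and 93.1% of those in gene bodies or promoter classes. These shares follow from how the list was made and single out none of the 6 genes.

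**Figure D1:**
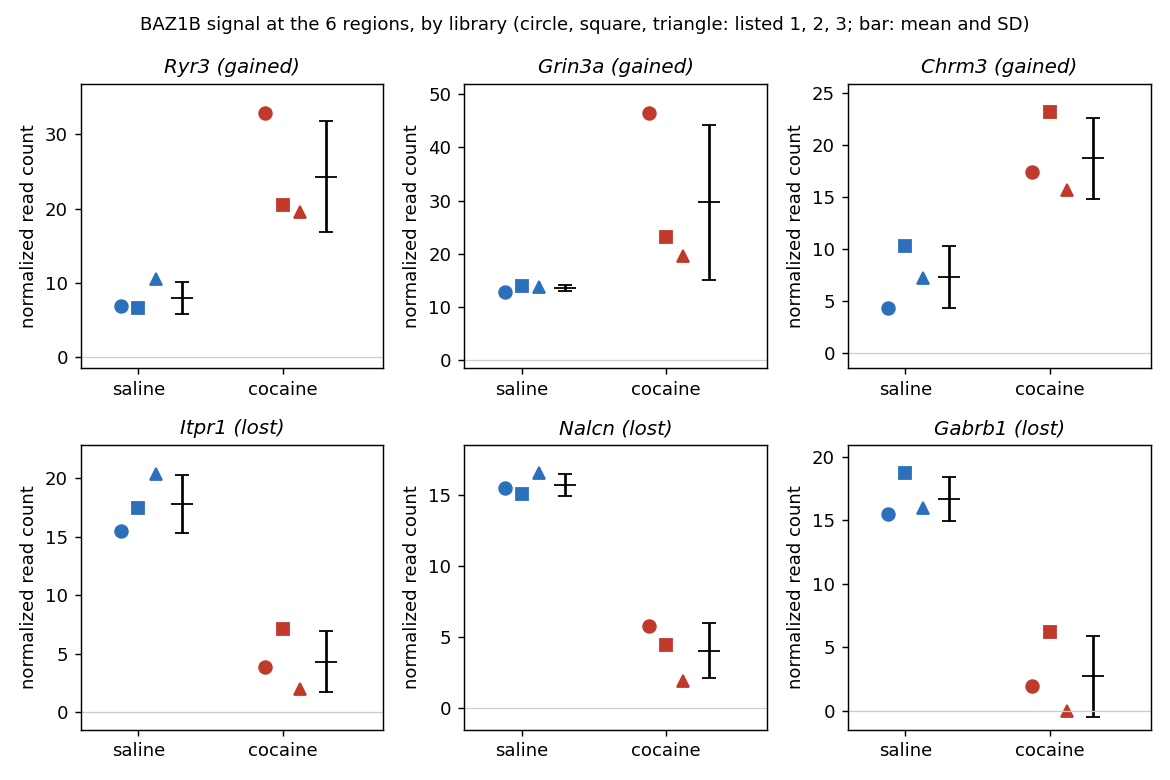
Normalized read count (vertical axes, linear and differing between panels) of each saline (blue) and cocaine (red) library at the 6 regions, with circle, square and triangle for the libraries listed as 1, 2 and 3, and a black bar for the mean and SD of 3 libraries. In every panel the groups are apart, and the cocaine library drawn as a triangle is the lowest of its group in all 6.

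Values are the authors' normalized read counts per region, given for cocaine libraries 1, 2 and 3 and then for saline libraries 1, 2 and 3 in the order of the deposited columns. The values step by an amount read as the worth of 1 read, and whole reads were recovered for 100% of the entries within 0.1 read. The step was searched for with this same tolerance, so the 100% does not show that a step is 1 read. In the second cocaine library and the second and the third saline libraries no listed value is as low as 1 read, so there its worth was inferred from the spacing of the values, and the reads, depths and intervals below are less certain for these 3 libraries. Relative to the deepest library, depth read from these steps was 28.2% to 62.1% in cocaine and 64.1% to 100% in saline. It equals sequencing depth only if the counts were scaled by total reads, and total depth is unknown. Counting intervals below are 95% exact intervals of the ratio of pooled reads per relative depth, and they cover counting error only.

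Among the calcium release channels, Ryr3 encodes the ryanodine receptor isoform that the brain expresses besides the cardiac and skeletal ones. Its region spanned 1300 bp (chromosome 2, 112834701 to 112836000) and had 32.87, 20.43 and 19.54 normalized reads in cocaine and 6.88, 6.64 and 10.48 in saline. The first cocaine library was the highest of the 6, and the lowest cocaine value was 1.86 times the highest saline value. The means were 24.3 ± 7.45 and 8.00 ± 2.15 (SD, n = 3), a 3.04-fold difference. The value rested on 17, 23 and 10 reads in cocaine and 8, 11 and 19 in saline, and the pooled reads gave 2.83-fold with a counting interval of 1.82 to 4.43. In all, the cocaine libraries held 50 reads at Ryr3 and the saline libraries 38, with the lower relative depths in cocaine. The region was chosen on these same libraries, so this is a description.

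Itpr1, the gene of the main neuronal inositol trisphosphate receptor, went the other way at a region of 1100 bp (chromosome 6, 108326701 to 108327800). It had 3.87, 7.10 and 1.95 normalized reads in cocaine and 15.48, 17.49 and 20.40 in saline. The second cocaine library was the nearest to saline, yet the lowest saline value was still 2.18 times as high. The means were 4.31 ± 2.60 and 17.8 ± 2.47 (SD, n = 3), which is 4.13-fold less in cocaine. Only 2, 8 and 1 reads lay behind the cocaine values, against 18, 29 and 37 in saline, and the pooled fold was 3.55 with a counting interval of 1.89 to 7.39. Without the second cocaine library 3 cocaine reads were left, and the pooled fold was 6.22 with an interval of 2.06 to 30.8.

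The pair of calcium release channels can also be read inside each library, where scaling cancels. For each read at Itpr1 there were 8.50, 2.88 and 10.0 reads at Ryr3 after cocaine, but 0.444, 0.379 and 0.514 after saline. Thus Ryr3 held more reads than Itpr1 in each cocaine library and fewer in each saline library. Since one region was chosen as higher and the other as lower, the direction of this ratio was fixed by the choice.

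Nalcn encodes the pore of the sodium leak channel. Its region spanned 1000 bp (chromosome 14, 123739301 to 123740300) and had 5.80, 4.44 and 1.95 normalized reads in cocaine and 15.48, 15.08 and 16.54 in saline. Saline values were close together, and the lowest was 2.60 times the highest cocaine value, the widest gap of the 6 genes. The means were 4.06 ± 1.95 and 15.7 ± 0.754 (SD, n = 3), which is 3.86-fold less in cocaine. The cocaine libraries held 3, 5 and 1 reads there and the saline libraries 18, 25 and 30, with a pooled fold of 3.77 and a counting interval of 1.88 to 8.58.

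Of the receptor genes, Grin3a encodes a glycine-binding NMDA receptor subunit whose presence lowers the calcium permeability of the receptor. Its region, the longest of the 6 at 1400 bp (chromosome 4, 49839101 to 49840500), had 46.41, 23.09 and 19.54 normalized reads in cocaine and 12.90, 13.87 and 13.79 in saline. The saline libraries were nearly equal, whereas the first cocaine library stood well above the other two. The means were 29.7 ± 14.6 and 13.5 ± 0.538 (SD, n = 3), a 2.20-fold difference and the smallest of the 6 genes. Without the first cocaine library the fold was 1.58. The raw reads numbered 24, 26 and 10 in cocaine and 15, 23 and 25 in saline, or 60 against 63 in all, so Grin3a was higher in cocaine only per relative depth, not in reads. The pooled fold was 2.05, with a counting interval of 1.41 to 2.96.

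Gabrb1 encodes the beta-1 subunit of the GABA-A receptor. Its region of 1100 bp (chromosome 5, 72472001 to 72473100) had 1.93, 6.22 and 0 normalized reads in cocaine and 15.48, 18.70 and 15.99 in saline. One cocaine library was listed at 0, and at its depth a count of 0 allows up to 5.86 normalized reads (3 reads), about the value of the second cocaine library. The means were 2.72 ± 3.18 and 16.7 ± 1.73 (SD, n = 3), which is 6.16-fold less in cocaine, and the SD of the cocaine group exceeded its mean. Behind this stood 1, 7 and 0 cocaine reads and 18, 31 and 29 saline reads, with a pooled fold of 4.53 and a counting interval of 2.19 to 10.9. Without the second cocaine library, which holds 7 of the 8 cocaine reads, the pooled fold was 17.3 with an interval of 3.02 to 693, and without the third the fold of the means was 4.10.

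Chrm3 encodes the M3 muscarinic receptor, which signals through Gq to phospholipase C. Its region of 1000 bp (chromosome 13, 9935101 to 9936100) had 17.40, 23.09 and 15.63 normalized reads in cocaine and 4.30, 10.25 and 7.17 in saline. The second cocaine library was the highest here, and the lowest cocaine value was 1.52 times the highest saline value. The means were 18.7 ± 3.90 and 7.24 ± 2.98 (SD, n = 3), a 2.58-fold difference. There were 9, 26 and 8 cocaine reads and 5, 17 and 13 saline reads, and the pooled fold was 2.64 with a counting interval of 1.65 to 4.25. M3 signalling leads to the channel encoded by Itpr1, and the regions of these 2 genes were listed in opposite directions.

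Taking the 3 higher and the 3 lower regions together inside each library removes the scaling. The cocaine libraries had 50, 75 and 28 reads in the regions of Ryr3, Grin3a and Chrm3 and 6, 20 and 2 in those of Itpr1, Nalcn and Gabrb1. The saline libraries had 28, 51 and 57 reads in the former and 54, 85 and 96 in the latter. The former therefore took 89.3%, 78.9% and 93.3% of the reads of all 6 regions after cocaine, as against 34.1%, 37.5% and 37.3% after saline. The exact binomial (Clopper-Pearson) intervals reached down to 69.4% in cocaine and up to 46.2% in saline, and they cover counting error only. Since the regions were chosen as higher or lower on these same libraries, the direction of this split was fixed by the choice. The second cocaine library, the deepest of its group at 62.1%, was the one nearest to saline.

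**Figure D2:**
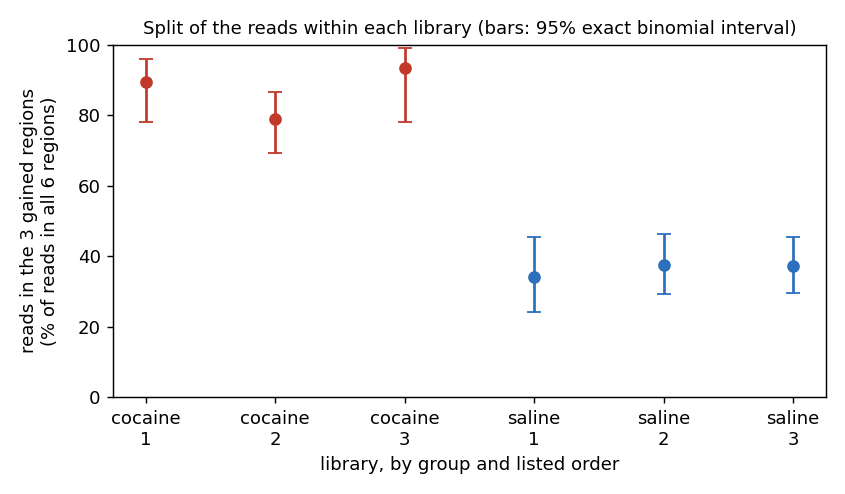
Share of the reads in the regions of Ryr3, Grin3a and Chrm3 among the reads in all 6 regions (vertical axis, %), for each library, with 95% exact binomial intervals for counting error only. Cocaine libraries lie between 78.9% and 93.3% and saline libraries between 34.1% and 37.5%; the regions were chosen on this difference.

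Within the cocaine group one library kept its place at all 6 regions, whereas the others did not. The third cocaine library was the lowest of its group at 6 of the 6 regions, the higher and the lower ones alike, with values from 0 at Gabrb1 to 19.54 at Ryr3 and Grin3a. Among the 124 other regions in gene bodies or promoter classes it was the lowest at 33.1%. The first cocaine library was the highest at Ryr3, Nalcn and Grin3a and the second at Itpr1, Gabrb1 and Chrm3. The place of the third library was noticed after the values were seen and was not tested. That library is also the shallowest of the 6, at 28.2% relative depth. The first cocaine library, the highest of its group at Ryr3, Nalcn and Grin3a, was nearly as shallow at 28.5%.

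The size of each difference depended on the libraries and on the way of computing it. Over group medians, pooled reads, means of log2(value + 1) and each library left out in turn, the fold ran from 2.5 to 3.59 at Ryr3, from 2.15 to 3.26 at Chrm3 and from 1.58 to 2.57 at Grin3a. It ran from 3.07 to 4.91 at Nalcn, from 3.24 to 6.11 at Itpr1 and from 4.10 to 17.3 at Gabrb1. Gabrb1 thus had both the largest difference and the least certain one, and its upper values rested on 1 cocaine read. The direction could not turn on leaving out a library, because the groups do not overlap.

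**Figure D3:**
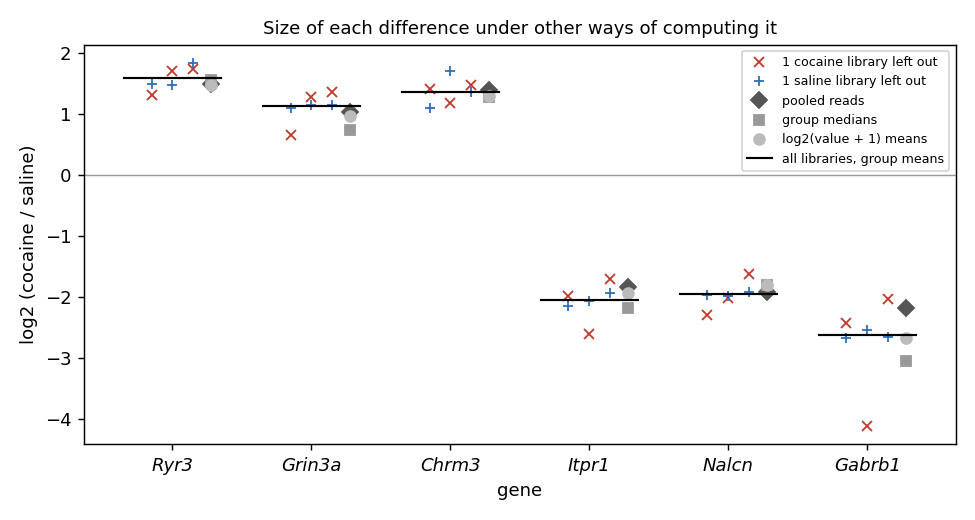
Log2 of cocaine over saline for each gene (vertical axis) with all libraries and group means (black line), without 1 cocaine library (red crosses), without 1 saline library (blue plus signs), and with pooled reads, group medians or means of log2(value + 1) (grey). Ryr3, Grin3a and Chrm3 lie above 0 and Itpr1, Nalcn and Gabrb1 below in each case, and the lowest point is Gabrb1 without the second cocaine library, at -4.12.

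Beside the other regions in gene bodies or promoter classes, Gabrb1 and Ryr3 had large differences, Grin3a a small one and Itpr1, Nalcn and Chrm3 ones near the median. The 64 other higher regions with group means under 60 had a median difference of 2.66-fold, against 3.04 at Ryr3, 2.58 at Chrm3 and 2.20 at Grin3a. The 37 other lower regions had a median of 3.92-fold, against 6.16 at Gabrb1, 4.13 at Itpr1 and 3.86 at Nalcn. By fold in the authors' deposited table, Gabrb1 ranked 2 of 52 lower regions and Ryr3 5 of 78 higher regions in these classes, while Grin3a ranked 66 of 78. The saline level of Grin3a, 13.5, was above that of every one of the other higher regions under 60, whose saline means ran from 5.31 to 10.98. These counts are per region and not divided by length. The Grin3a region spans 1400 bp, against a median of 1000 bp over the listed regions, so its level is not read as a higher density.

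The authors' deposited table also gives an enrichment for each group, whose reference is not given in the sources used here. In that table the enrichment was 1.39 in cocaine and 0.39 in saline at Ryr3, 2.35 and 0.91 at Grin3a, and 1.57 and 0.52 at Chrm3. For the lower regions the authors' deposited table has 0.40 in cocaine and 1.5 in saline at Itpr1, 0.76 and 2.54 at Nalcn, and 0.26 and 1.49 at Gabrb1. The group with less signal was thus under 1 at all 6 genes. Among other regions of these classes it was over 1 in saline at 42.7% of the 75 higher regions and in cocaine at 28.6% of the 49 lower ones. Nalcn in saline had the highest deposited enrichment of the 6 genes over both groups, while in cocaine Nalcn was below Ryr3, Grin3a and Chrm3. Its saline level in reads was below those of Itpr1 and Gabrb1, but counts are not divided by length. The Nalcn region spans 1000 bp and the other 2 span 1100 bp each.

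Inside 4 of the regions the authors' best window was shorter than the region and had a larger difference. A window picked as best on the same libraries can show a larger difference through that pick alone, so this is a description. In the authors' deposited table the log2 fold change was 1.83 in the window against 1.6 over the Ryr3 region, and 1.41 against 1.13 at Grin3a. It was -3.12 against -2.62 at Gabrb1 and -2.22 against -2.05 at Itpr1, again in the authors' deposited table. At Chrm3 and Nalcn the window was the region. The adjusted p of the region in the authors' deposited table was 0.000673 at Gabrb1, 0.000679 at Ryr3, 0.00163 at Itpr1 and Chrm3, 0.00221 at Nalcn and 0.00310 at Grin3a, over 14119 tests.

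The place of a region in its gene was not part of the choice beyond its class. All 6 genes are long, from 184 kb for Grin3a to 484 kb for Chrm3 between the deposited start and end of the transcript. Among the 95 other genes with a gene body region the median length was 161 kb, and 49.5% were longer than Grin3a. Ryr3 and Grin3a, both higher in cocaine, had their regions near the start, 35.1 kb and 18.8 kb into the gene, or 8.81% and 10.2% of its length. Itpr1 had its region in the middle, at 164 kb or 48.6%. The regions of the remaining genes lay towards the end: 287 kb or 81.8% into Nalcn, 381 kb or 87.2% into Gabrb1 and 424 kb or 87.7% into Chrm3.

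The position did not sort the genes by direction, since Chrm3 was higher and Gabrb1 lower at almost the same relative place. Of the 113 other gene body regions, 17.7% lay in the last 20% of the gene, against 3 of 6 here, and 9.73% in the first 12%, against 2 of 6. With 6 regions, and with both limits set after the positions were seen, these shares are a description. Whether a region is exonic or intronic was not determined, because no mm9 annotation was used here. No other listed region was close, which is usual for the list, with a median distance of 1852.5 kb to the nearest other region and a first quartile of 429.5 kb. The nearest one was 439 kb away from that of Chrm3, 1344 kb from Itpr1 and 10626 kb from Ryr3, with the others between these.

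**Figure D4:**
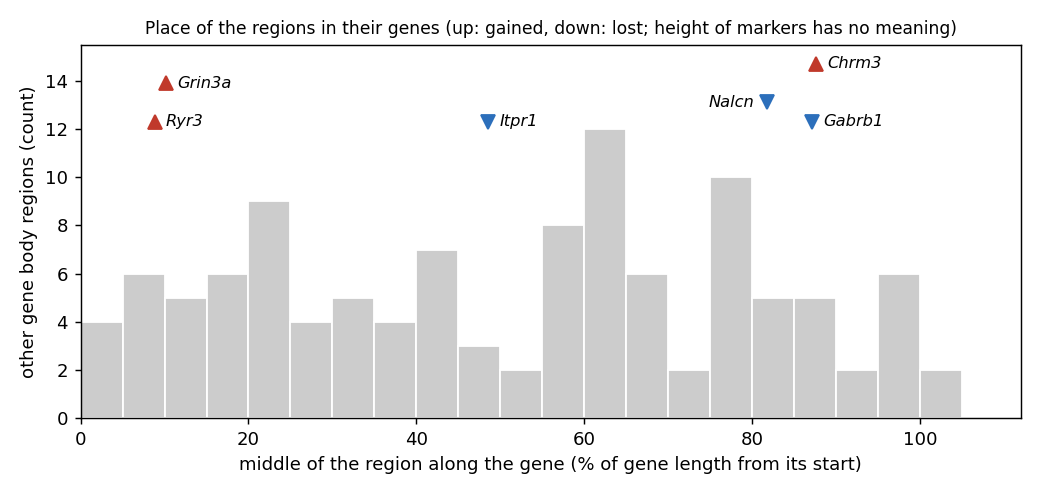
Middle of each region along its gene (horizontal axis, % of gene length from the start) for the regions of Ryr3, Grin3a and Chrm3 (red, pointing up) and Itpr1, Nalcn and Gabrb1 (blue, pointing down), above a histogram of the 113 other gene body regions (vertical axis, count). Ryr3 and Grin3a sit near the start at 8.81% and 10.2%, Itpr1 at 48.6%, and Nalcn, Gabrb1 and Chrm3 between 81.8% and 87.7%.

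In the order of genes in GRCm38.p6, used for names only, the neighbours include relatives of these genes. Chrm3 lies next to Ryr2, which encodes another ryanodine receptor, and Gabrb1 overlaps Gabra4, which encodes a GABA-A alpha subunit. Itpr1 lies between Sumf1 and Bhlhe40, and Grin3a overlaps Ppp3r2, the gene of a calcineurin regulatory subunit. Neither Ryr2 nor Gabra4 is the gene assigned to any region of the list.

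The same held for the wider families. Lists of calcium release channels and their partners, the NALCN complex, NMDA and other ionotropic glutamate receptor subunits, GABA-A subunits, and muscarinic and nicotinic receptors held 91 genes, and 6 of them were assigned a region, 3 higher and 3 lower. All 6 are the genes described here. Calcium release channels had 2 of 6 members with a region, NMDA receptor subunits 1 of 7, GABA-A subunits 1 of 19, muscarinic receptors 1 of 5 and the NALCN complex 1 of 5. The 6 genes were chosen for having a region, so each list that holds one of them has at least 1 by that choice. The share of all genes with a region is not given here, so these counts show no enrichment of a family. The 25 partners of calcium release, among them the phospholipase C beta and Homer genes, the 11 other ionotropic glutamate subunits and the 13 nicotinic subunits had 0. The deposited table gives no value for a gene without a region, so BAZ1B signal at these genes was not analysed here.

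Each gene was also set beside the other region of the same classes whose 6 library values were most like its own, by the root-mean-square difference of log2(value + 1). Nalcn was closest to 9330182L06Rik, at 0.079 on the log2 scale, with the same cocaine values of 5.80, 4.44 and 1.95 normalized reads. Gabrb1 was closest to Spata17 at 0.13 and Chrm3 to Ccdc138 at 0.17. Ryr3 was closest to Tbc1d9 at 0.18 and Itpr1 to Sel1l2 at 0.33. Grin3a had the least similar nearest region, that of the adhesion gene Kirrel, at 0.46. Over all 124 candidate regions the median difference ran from 0.68 for Ryr3 to 2.35 for Gabrb1. At these low counts many regions share a few possible values, so a close match was not read further.

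Models fitted to all 381 regions put the 6 genes beside the list. edgeR's quasi-likelihood test on the recovered reads, with Benjamini-Hochberg adjustment over 14119 tests, called 286 regions, or 75.1%, and 5 of the 6 genes, all but Grin3a with an adjusted p of 0.115. Without any single library other than the second cocaine one edgeR called 0 regions and 0 of the 6 genes, and without the second cocaine library it called 169 regions and 4 of the 6, which were Ryr3, Itpr1, Grin3a and Gabrb1. limma on log2(value + 1) called 0.0% of the regions and 0 of the 6 genes, with 347 regions and all 6 genes at an unadjusted p under 0.05. With 3 libraries a group, no exact permutation p can be smaller than 0.1. Both models see regions that had been selected on the same libraries, so nothing about the 6 genes is read from these counts.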

How the data were processed

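BAZ1B ChIP-seq libraries of 100 bp reads were made from nucleus accumbens punches, per the labels' protocols. The deposited file is 1 table of differential regions on mm9; diffReps with a negative binomial test is read from its name, and CASAVA 1.8 is named in the submitters' processing notes. Per the file headers, the deposited signal of a region is a normalized read count per library. For the aligner, read filters, diffReps settings and scaling, nothing is given in the sources used here. The enrichment ratio, log2 fold change, p-value and adjusted p-value are the authors' own. The header names 26 columns for 30 cells a line, and none of the 6 library columns shows a replicate number; the text counts libraries within a group in column order.

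From these, means, SDs, folds of group means, recovered reads, exact counting intervals and positions along the deposited transcript were computed (Python 3.11.15, scipy 1.17.1). All 119 deposited distances to the start in gene bodies were matched. limma 3.58.1 was fitted to log2(value + 1), and edgeR 4.0.16 to the recovered reads with relative depths as library sizes. Both were run on simulated data. The check there covered the size of edgeR's folds and the direction of limma's calls. It could pass with no region called by limma, so it does not show that limma finds such differences. The adjustment over 14119 tests matches the deposited adjusted p-values at 381 of 381 regions within 0.1%.

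The genes and lists were chosen with earlier results of these data known. All 6 genes are named, with the 1 most similar other region of each and any listed relative; each of the 91 list symbols is in the gene table for GRCm38.p6. Promoter windows are from RefSeq, build GRCm38.p6. The last-20% and first-12% limits, the limit of 60 on group means and edgeR without each library were set after seeing the data.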

Additional observations from a re-analysis of the deposited data

How the results depend on the processing

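limma called 0 regions with all libraries, with a pseudocount of 0.5, with a minimum of 10 for the higher group mean (all 381 regions pass it) and without each library (0 to 0). edgeR's quasi-likelihood test called 286 regions, and 0 to 169 without each library; of the 6 genes it called 5, and 0 to 4 without each library. At the limit of 0.05, the smallest adjusted p over all regions was 0.0530 with limma and 0.0255 with edgeR. Among the 6 genes limma's adjusted p ran from 0.0530 at Ryr3 to 0.538 at Gabrb1. Without each library limma's smallest adjusted p ran from 0.0771 to 0.150. The cause of the gap between the tools, and of the calls lost without a library, was not tested. Of 54 alternative folds of the 6 genes, 53 moved by less than the spread between libraries and 0 changed direction. The other was Gabrb1 without the second cocaine library, at -4.12 on the log2 scale against -2.62. The spread combines the SDs of both groups, so leaving out 1 library could seldom move a fold beyond it. The direction could not turn on leaving out a library either, so these counts do not measure how stable the folds are. Counts limit the folds of Itpr1, Nalcn and Gabrb1 most, which rest on 11, 9 and 8 cocaine reads, against 50, 60 and 43 at Ryr3, Grin3a and Chrm3 in the same libraries. No paired analysis was possible because the deposited columns do not show which replicate they hold.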
